A study of Mus musculus with 16 samples.

Results

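The transcripts described here are 9 genes that dendritic cells raise when they mature and leave the skin. They are the chemokines *Ccl17* and *Ccl22*, the chemokine receptor *Ccr7*, the costimulatory proteins *Cd40*, *Cd80* and *Cd86*, the inhibitory ligand *Cd274*, the maturation marker *Cd83* and the actin-bundling protein *Fscn1*. They were taken by symbol from a table of 55487 gene IDs, of which 44374 had a read in at least 1 library, and each of the 9 had a single row. Bulk RNA sequencing had been done on mouse skin cells sorted on CD45, the leukocyte surface protein encoded by *Ptprc*. There were 16 libraries in 4 groups of 4. These were CD45-positive (immune) cells of stretched skin (libraries 1, 2, 7 and 8) and of control skin (3, 4, 5 and 6), and CD45-negative (stromal) cells of stretched skin (5 to 8) and of control skin (1 to 4). Stretched skin was taken 6 h after hypobaric pressure, a suction applied to the skin, and control skin was unstretched skin of the same area. The labels name no strain, sex, age or genotype. The labels do not say whether the 4 libraries of a group came from separate animals, so the tests weigh only the spread among libraries, which may be technical.

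Dendritic cells sample antigen in the skin in an immature state. When they meet a danger signal they raise major histocompatibility complex (MHC) class II, CD83 and the costimulatory proteins CD40, CD80 and CD86, rearrange their actin skeleton with fascin-1, and gain CCR7. CCR7 follows the chemokines CCL19 and CCL21 into lymphatic vessels and on to the lymph node, where the cell presents antigen to T cells. Mature cells also release CCL17 and CCL22, which attract T cells through CCR4, and carry PD-L1, the product of *Cd274*, which restrains T cells through PD-1.

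Total counts ran from 7018743 to 20095580 in the immune stretched libraries and from 2645421 to 6662268 in the immune controls. They ran from 21955174 to 26944965 in the stromal stretched libraries and from 13563586 to 20467010 in the stromal controls, so depth did not overlap between stretched and control skin in either fraction. *Ptprc* lay between 220 and 703 CPM (counts scaled to library size, with TMM factors over the 16 libraries) in the immune libraries and between 0.0644 and 3.39 CPM in the stromal ones. The TMM factors ran from 0.686 in immune stretched 2 to 1.75 in immune control 4. Sums over several genes, here and below, were scaled to the library total alone, without TMM factors. Reads on 1738 olfactory and vomeronasal receptor genes, known from sensory neurons, came to 5942 CPM in immune control 4, 408 in stromal stretched 7 and 200 in stromal stretched 8, against 17.8 to 68.7 in the other 13. The 15 conventional dendritic cell markers examined each had a read in the immune stretched and in the immune control group. They summed to between 937 and 2910 CPM in the immune stretched libraries and to between 997 and 1485 CPM in the immune controls. In a bulk sample fewer cells of a type and less RNA per cell cannot be told apart.

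*Cd83* was the most abundant of the genes in the immune fraction, and all but *Fscn1* were far higher in immune than in stromal cells. Per kilobase of transcript, the scale on which levels of different genes can be compared, *Cd83* averaged 559 ± 192 CPM per kb in immune stretched libraries and 216 ± 135 in immune controls (SD, n = 4 each), and it stood above the next gene in each of the 8. In immune stretched cells *Ccl17* (68.7 ± 33.3), *Cd86* (63.0 ± 6.22), *Ccr7* (59.8 ± 23.8) and *Ccl22* (47.4 ± 22.96 CPM per kb) followed, and the means of neighbours in this order differed by less than their SD, though *Ccr7* stood above *Ccl22* in each of the 4 libraries. *Cd274* (26.0 ± 24.1), *Cd40* (23.2 ± 6.50) and *Cd80* (20.4 ± 14.3 CPM per kb) came next and could not be ordered among themselves. *Fscn1* was last with 4.63 ± 1.96 CPM per kb, below *Cd80* in each of the 4 libraries. The order of means in immune controls was the same except that *Ccl22* (34.2 ± 35.0) stood before *Ccr7* (26.9 ± 21.7 CPM per kb) and *Cd80* before *Cd40*. *Cd80* (15.65 ± 13.9) stood above *Cd40* (14.5 ± 5.85 CPM per kb) only in control 5, at 36.4 against 21.5. These neighbours also differed by less than their SD. In the stromal fraction the order was different, with *Fscn1* first at 12.5 ± 4.97 CPM per kb in stretched and 11.7 ± 4.08 in control cells. *Cd274* (4.03 ± 1.86 in stretched, 2.84 ± 1.82 in control), *Cd83* (1.79 ± 1.42 and 1.81 ± 0.76) and *Cd40* (1.07 ± 0.23 and 0.507 ± 0.11 CPM per kb) followed in that order.

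**Figure D1:**
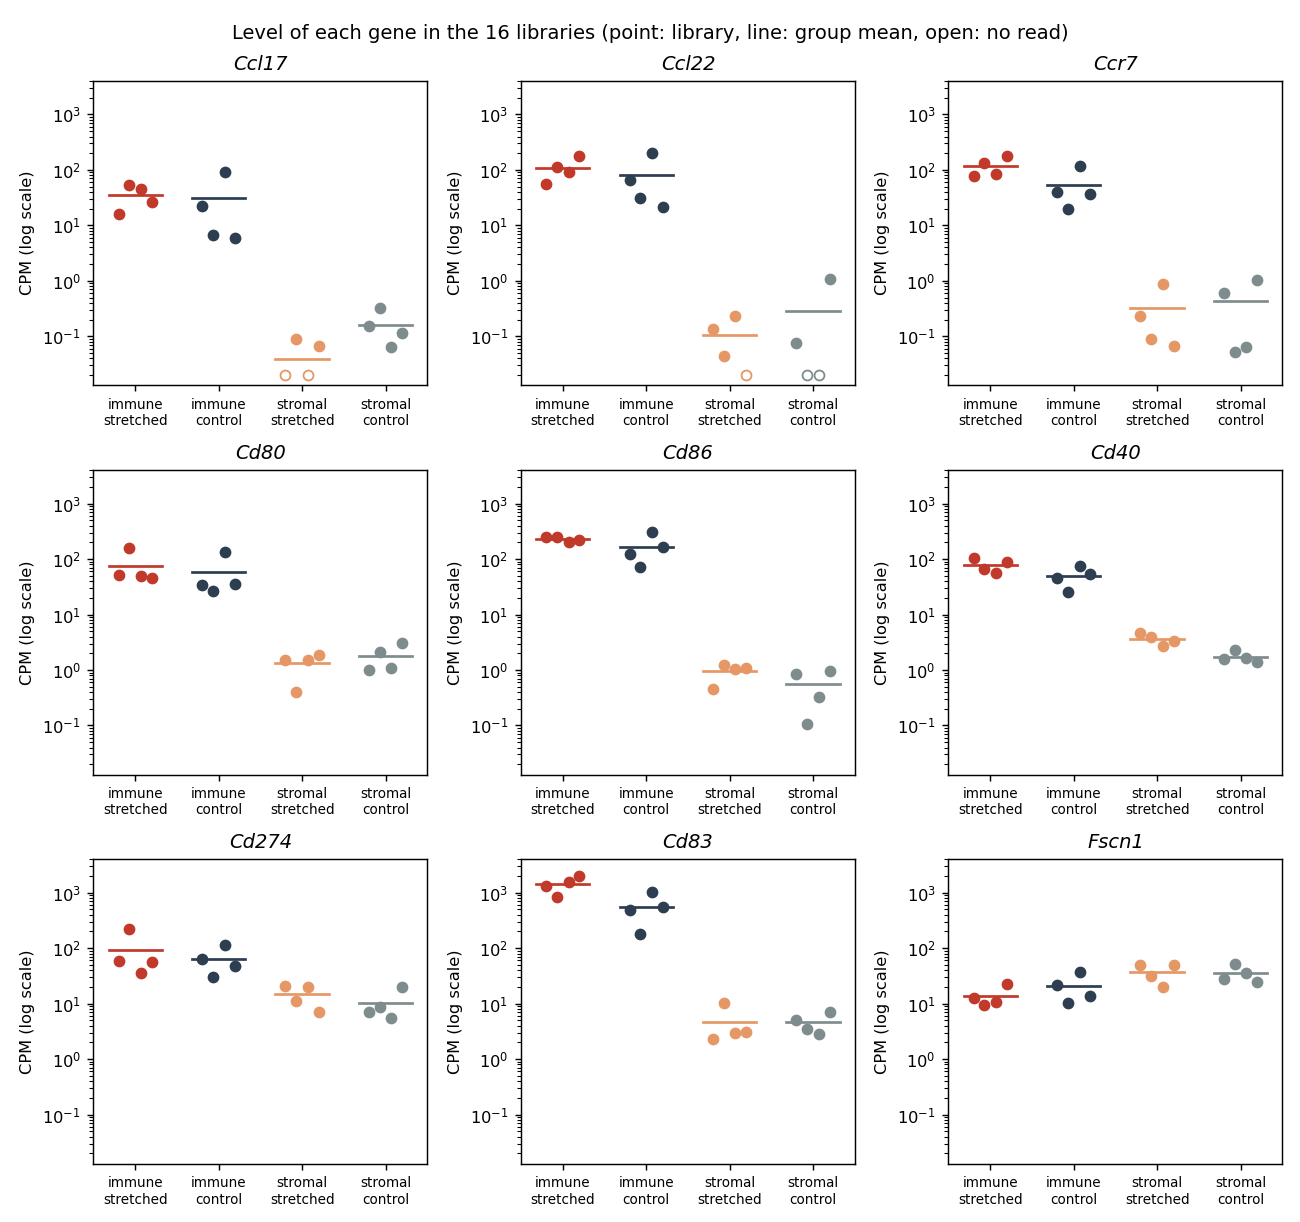
Level of the 9 genes in the 16 libraries, in CPM on a log axis, with 1 point per library, a line at the group mean and open points for libraries with no read. The immune groups lie above the stromal groups without overlap for 8 genes, while *Fscn1* overlaps, and stretched and control immune libraries overlap for every gene. The share of all genes without overlap between the fractions was not computed.

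The first comparison asked where in the skin these genes are transcribed. In stretched skin 8 of the 9 genes were higher in immune than in stromal cells, against 23.9% of the 17116 genes tested that were called higher (edgeR quasi-likelihood F test, Benjamini-Hochberg adjusted p under 0.05). In control skin the same 8 genes were higher, against 26.6% of 15142 genes. In both settings each immune library stood above each stromal library for these 8, and the share of all genes that did so was not computed. *Ccl22* had a log2 fold change of 9.85 ± 0.71 in stretched skin (SE, adjusted p = 5.83e-06 in edgeR) and of 8.10 ± 1.16 in control skin (edgeR adjusted p = 0.00023). The control value was 11.26 without stromal control 4, which held 19 of the 20 *Ccl22* reads of that group. *Cd86*, a costimulatory ligand of CD28, had 7.75 ± 0.36 in stretched and 8.32 ± 0.70 in control skin (edgeR adjusted p = 6.17e-07 and 8.27e-06). *Cd274* had the smallest difference of the 8, 2.54 ± 0.60 in stretched and 2.73 ± 0.49 in control skin (edgeR adjusted p = 0.00642 and 0.000969), and its mean stromal level was 15.5% of its immune level in stretched and 16.1% in control skin. For *Ptprc*, the gene of the sorting marker, the stromal level was 0.325% of the immune level in stretched and 0.128% in control skin. *Ccl17* (0.111% in stretched and 0.518% in control skin), *Ccl22* (0.0943% and 0.362%), *Ccr7* (0.271% and 0.821%), *Cd86* (0.417% and 0.334%) and *Cd83* (0.320% and 0.840%) had stromal levels under 1% of the immune ones. *Cd80* (1.74% and 3.13%) and *Cd40* (4.63% and 3.50%) were between these and *Cd274*. Whether immune cells left in the stromal sort contributed to these levels was not tested.

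*Fscn1*, which bundles actin filaments and is used as a marker of mature dendritic cells, ran the other way. It had 12.8, 9.56, 10.8 and 22.6 CPM in immune stretched libraries 1, 2, 7 and 8, against 50.1, 30.9, 19.6 and 49.7 CPM in stromal stretched libraries 5 to 8. In control skin it had 21.8, 10.2, 36.8 and 13.8 CPM in immune libraries 3 to 6, against 28.4, 52.6, 35.2 and 24.96 CPM in stromal libraries 1 to 4. In each setting 1 immune library reached into the stromal range. Immune *Fscn1* was lower in stretched skin (log2 fold change -1.54 ± 0.36, edgeR adjusted p = 0.00602), where 25.1% of genes were called lower in immune cells. In control skin the difference was -0.68 ± 0.39 and did not pass (edgeR adjusted p = 0.175, where 22.8% of genes were called lower). Without immune control 5 the control value was -1.16 (edgeR adjusted p = 0.0233). The 10 fibroblast markers were lower in immune cells in both settings, with summed levels of 1434 to 10201 CPM in immune stretched and 1533 to 7476 CPM in immune control libraries, against 47860 to 66505 CPM in stromal stretched and 44123 to 57678 CPM in stromal control libraries. Their part in the *Fscn1* level was not tested.

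Most genes on a list of partners and related genes were also higher in immune cells. Of 12 listed ligands and receptors, 8 of 12 tested were called higher and 1 lower in immune cells of stretched skin, beside 23.9% and 25.1% of all genes. In control skin 8 of 11 tested were called higher and 1 lower, beside 26.6% and 22.8% of all genes. In this list *Pdcd1lg2*, *Icos*, *Tnfrsf4* and *Ackr4* are related genes, not direct partners. *Ctla4*, the inhibitory receptor for CD80 and CD86, had 35.0 ± 9.97 CPM in immune stretched and 20.8 ± 9.37 CPM in immune control libraries (SD, n = 4 each), against 0.0883 ± 0.13 CPM in stromal stretched libraries and no read in the stromal controls. *Pdcd1lg2*, which encodes PD-L2, had a log2 fold change of 6.62 ± 0.64 in stretched and 7.06 ± 0.87 in control skin. *Icos*, a costimulatory receptor of T cells, had one of 6.64 ± 0.30 in stretched and 6.38 ± 0.72 in control skin. *Ccl19*, the ligand of CCR7, was sequenced from both fractions, at 15.1 ± 8.60 CPM in immune stretched, 9.67 ± 12.5 CPM in immune control, 27.0 ± 18.99 CPM in stromal stretched and 47.8 ± 21.7 CPM in stromal control libraries (SD, n = 4 each). All 11 genes of MHC class II and peptide loading tested in stretched skin, and all 10 tested in control skin, were called higher in immune cells. The shares of all genes called higher were 23.9% and 26.6%. *H2-Aa*, a class II alpha chain, had a log2 fold change of 9.41 ± 0.69 in stretched and 8.05 ± 0.64 in control skin (edgeR adjusted p = 6.42e-06 and 6.18e-06).

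The second comparison asked whether stretching changed the genes in immune cells within 6 h. Of the 9, 8 had a positive and 1 a negative log2 fold change, with a median of 0.32 beside -0.02 over the 14183 genes tested. At an adjusted p under 0.05, 0 of the 9 were called, and 0.0% of all genes were (edgeR), with 45 genes called when stretched 2 was left out. At an unadjusted p under 0.05, 1 of the 9 (*Cd83*) passed, where 17.4% of all genes did. In 0 of the 9 did stretched and control libraries separate without overlap, which 11.7% of all genes did. By limma-voom with sample quality weights 1 of the 9, *Cd83*, passed, where 6.26% of all genes did, and by DESeq2 0 of the 9 passed, where 5.51% did.

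*Cd83*, a surface protein of mature dendritic cells that stabilizes MHC class II and CD86 at the membrane, had 1327, 836, 1571 and 2018 CPM in immune stretched libraries 1, 2, 7 and 8, against 479, 176, 1013 and 553 CPM in immune controls 3 to 6. In 3 of the stretched libraries it was above every control, and stretched 2 was below control 5. The log2 fold change was 1.21 ± 0.48 (SE, adjusted p = 0.240 in edgeR). With limma-voom it was 1.37 with an adjusted p of 0.0428. Without immune control 5 it was 1.67 (edgeR adjusted p = 0.226), and leaving out single libraries gave 0.93 to 1.67.

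*Ccr7*, the receptor that guides dendritic cells into lymphatic vessels, had 76.9, 134, 84.3 and 178 CPM in immune stretched libraries, against 39.8, 19.6, 116 and 37.1 CPM in immune controls. Stretched 2 and 8 were above every control, and control 5 was above stretched 1 and 7. The log2 fold change was 1.003 ± 0.50 (SE, edgeR adjusted p = 0.318), with 1.71 without control 5 and 0.74 at the lowest when 1 library was left out.

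The chemokines *Ccl17* and *Ccl22*, both ligands of CCR4, spread widely within each group. *Ccl17* had 15.8, 53.2, 45.5 and 26.8 CPM in immune stretched libraries, against 22.4, 6.70, 90.2 and 5.85 CPM in immune controls. *Ccl22* had 54.7, 114, 90.6 and 181 CPM in immune stretched libraries, against 66.7, 31.4, 198 and 21.9 CPM in immune controls. For both genes immune control 5 was the highest of the 8 libraries. The log2 fold change was 0.03 ± 0.78 for *Ccl17* and 0.30 ± 0.63 for *Ccl22* (SE, edgeR adjusted p = 0.988 and 0.825). Without control 5 the values were 1.43 and 1.26 (edgeR adjusted p = 0.272 and 0.263). Single libraries left out gave values from -0.34 for *Ccl17* and from -0.038 for *Ccl22* at the lowest. *Ccr4*, their receptor on T cells, had 2.22 ± 1.48 CPM in immune stretched and 2.71 ± 3.12 CPM in immune control libraries (SD, n = 4 each).

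The 2 chemokine genes lie on chromosome 8 in the same orientation (GRCm38, *Ccl22* at 94745590 to 94751699 and *Ccl17* at 94810453 to 94812036), and across the 8 immune libraries their log2 CPM had a Pearson correlation of 0.898, the highest of the 36 pairs among the 9 genes. RefSeq promoter windows for GRCm38.p6 (250 bases before to 50 after the start) were at hand for 5 of the 9 genes, namely *Ccl17*, *Ccl22*, *Cd80*, *Fscn1* and *Cd274*. The 2 chemokine promoters are printed because the levels of these genes ran together, and that of *Fscn1* because it stood apart from the rest. Each run is on the plus strand and ends 1 base before the more upstream of the RefSeq and GENCODE M21 starts, at chr8:94810203-94810452 for *Ccl17*, chr8:94745434-94745589 for *Ccl22* and chr5:142960105-142960342 for *Fscn1*. Capitals mark TATAAA.
Ccl17: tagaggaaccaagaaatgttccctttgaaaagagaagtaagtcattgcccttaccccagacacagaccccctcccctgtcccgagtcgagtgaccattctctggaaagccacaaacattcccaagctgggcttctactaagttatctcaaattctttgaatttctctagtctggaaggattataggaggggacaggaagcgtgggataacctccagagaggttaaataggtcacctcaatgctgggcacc
Ccl22: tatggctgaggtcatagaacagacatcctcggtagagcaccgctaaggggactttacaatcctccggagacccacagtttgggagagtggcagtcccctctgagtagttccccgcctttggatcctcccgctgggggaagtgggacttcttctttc
Fscn1: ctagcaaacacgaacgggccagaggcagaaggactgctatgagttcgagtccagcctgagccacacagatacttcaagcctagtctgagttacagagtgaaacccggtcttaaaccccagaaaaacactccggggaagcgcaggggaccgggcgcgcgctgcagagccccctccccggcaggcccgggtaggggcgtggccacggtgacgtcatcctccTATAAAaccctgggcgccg

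In the full windows of 300 bases, 3 motifs were searched on both strands. TATAAA was found at position -31 from the RefSeq start of *Fscn1* on the gene's strand, and in 13.6% of all 32851 windows. It was also found at position 4 of *Cd80* on the opposite strand. The AP-1 motif TGANTCA, which reads the same on both strands, was found at 1 place in *Cd80*, position -42, and in 7.81% of all windows. The *Cd80* window, chr16:38458683-38458982, lies inside the gene as annotated in GENCODE M21, which starts at 38455561. Its positions refer to the RefSeq start alone. The kappaB motif was found in none of the 5 windows, and in 8.46% of all windows. The *Fscn1* window had 61.7% G and C with 21 CpG, against 48.0% with 3 in *Ccl17*, 53.3% with 8 in *Ccl22* and medians of 52.7% and 7 over all windows. A match of letters does not show a bound site, and its absence from a window says nothing of the factor.

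The costimulatory genes were each higher in the stretched group mean without passing the test. *Cd40*, the receptor for CD40 ligand of helper T cells, had 104, 67.1, 55.0 and 89.2 CPM in immune stretched libraries, against 45.7, 25.2, 73.4 and 53.4 CPM in immune controls. Stretched 1 and 8 were above every control, and control 5 was above stretched 2 and 7. Its log2 fold change was 0.52 ± 0.31 (SE, edgeR adjusted p = 0.399). *Cd86* had 252, 245, 202 and 224 CPM in immune stretched libraries, against 122, 72.0, 306 and 165 CPM in immune controls. The stretched libraries lay within 202 to 252 CPM, between the highest control and the other 3. Its log2 fold change was 0.32 ± 0.38 (SE, edgeR adjusted p = 0.673) and 0.78 without control 5.

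For *Cd80* and *Cd274*, 1 library in each group stood high. *Cd80*, the second ligand of CD28 and CTLA-4, had 52.4, 155, 49.4 and 45.4 CPM in immune stretched libraries, against 34.1, 27.0, 135 and 35.8 CPM in immune controls. These were stretched 2 and control 5, each above the other 3 of its group. *Cd274* had 59.6, 224, 35.3 and 57.5 CPM in immune stretched libraries, against 64.5, 30.0, 114 and 47.5 CPM in immune controls. Stretched 2 and control 5 were again the highest of their groups. The log2 fold change was 0.26 ± 0.60 for *Cd80* and 0.45 ± 0.61 for *Cd274* (SE, edgeR adjusted p = 0.843 and 0.721). Without stretched 2 both turned negative, at -0.43 and -0.52. The 11 neutrophil markers summed to 33508 CPM in stretched 2, against 139 to 778 CPM in the other stretched libraries, and to 8999 CPM in control 5 against 480 to 6872 CPM in the other controls. The sum of 6872 CPM was that of control 3, where *Cd80* was at 34.1 CPM and *Cd274* at 64.5 CPM. Each of the 11 markers had a read in both immune groups. Their part in the levels of *Cd80* and *Cd274* was not tested.

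*Fscn1* was the gene with a negative value, at -0.73 ± 0.42 (SE, edgeR adjusted p = 0.378). Its immune values, given above, overlapped, with stretched 8 above 3 of the 4 controls. Leaving out single libraries gave -1.06 to -0.32.

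**Figure D2:**
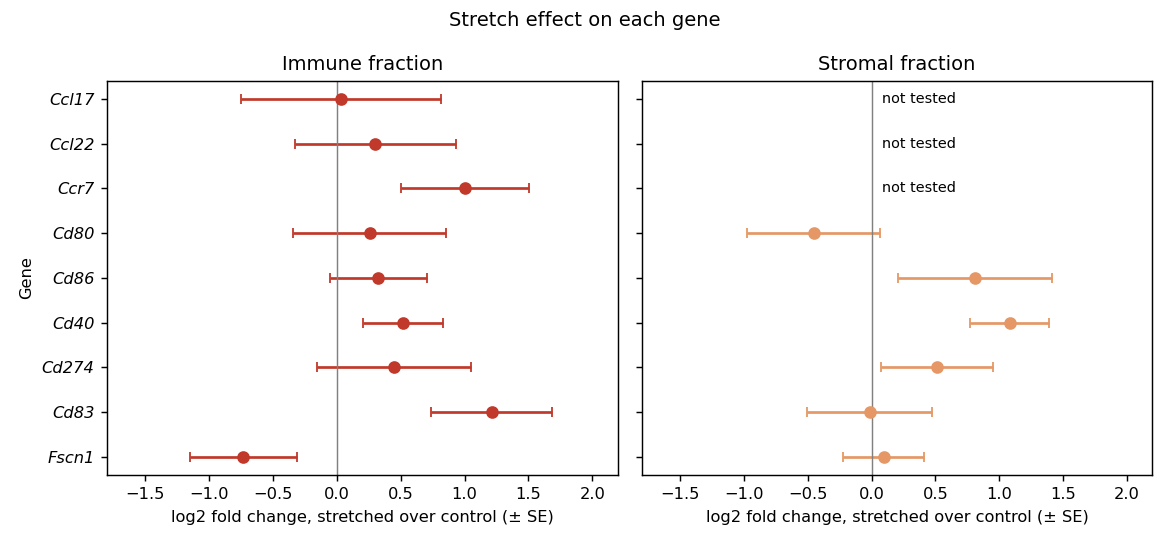
Log2 fold change of stretched over control for each gene in the immune (left) and the stromal (right) fraction, with bars for ± SE. In the immune fraction 8 values are positive, led by *Cd83* at 1.21 and *Ccr7* at 1.003, and *Fscn1* is at -0.73. In the stromal fraction *Cd40* is at 1.08, and 3 genes with few reads were not tested.

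The 8 immune libraries ranked in a similar way for several of the genes. Immune control 5 was the highest of the 8 for 4 genes and second for 2. Immune control 4, the library with the most receptor gene reads and the fewest counts, was the lowest for 6. These ranks are of TMM-scaled CPM, with a factor of 1.75 for control 4 and 0.686 for stretched 2. A larger factor gives a lower CPM for the same share of reads, so the ranks depend on the factors. Stretched 8 was the highest for *Ccr7* and *Cd83* and second for 3. Leaving out control 4 and stretched 2 together gave 1.10 for *Cd83*, 0.64 for *Ccr7*, 0.38 for *Cd40*, 0.03 for *Cd86* and 0.0065 for *Ccl22*, and -0.59 for *Ccl17*, -0.64 for *Cd80*, -0.73 for *Cd274* and -0.81 for *Fscn1*. The edgeR adjusted p lay above 0.1 for each of the 9 in that fit.

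For each gene the transcripts most like it over the 8 immune libraries were sought among 8910 genes with a mean of at least 10 CPM, by the Pearson correlation of log2 CPM. These values describe 8 libraries that also differ in depth and treatment. *Cd83* was most like *H2-Aa* (0.993), *Crat* (0.985) and *H2-Eb1* (0.978), of which *H2-Aa* and *H2-Eb1* encode MHC class II chains. *Cd86* was most like *Tnf* (0.993), the cytokine tumour necrosis factor. *Ccl17* and *Ccl22* shared the same first gene, *Cd200r1* (0.984 and 0.928), an inhibitory receptor of myeloid cells. *Ccr7* was most like *Cdc42ep4* (0.965), an effector of the actin regulator CDC42, and *Stat6* was among the 3 nearest (0.959). *Cd80* was most like *Mthfs* (0.981) and *Pirb* (0.976), a paired immunoglobulin-like receptor, and *Cd274* like *Themis2* (0.989). *Cd40* was most like *Mfsd1* (0.962) and *Ctsb* (0.950), which encodes cathepsin B. *Fscn1* was most like *Fam43a* (0.930). Among the 9 genes themselves *Cd80* and *Cd274* reached 0.888, and *Fscn1* stayed at or under 0.512 with each of the other 8.

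The level of *Cd83* ran beside that of the class II list. The 11 genes of MHC class II and peptide loading summed to 43852, 21888, 51050 and 62957 CPM in immune stretched libraries 1, 2, 7 and 8, against 19520, 10824, 23490 and 24729 CPM in immune controls 3 to 6. These sums are scaled to library totals, while the CPM of *Cd83* are TMM-scaled. Per 100 reads of this list there were 2.88, 2.62, 2.90 and 3.003 reads of *Cd83* in stretched and 2.48, 2.67, 3.88 and 2.41 in control libraries, which overlapped. All 11 genes had a positive log2 fold change, with a median of 1.17 and 8 of 11 at an unadjusted p under 0.05, and 0 were called (17.4% and 0.0% of all genes). *Cd74*, the invariant chain that escorts class II proteins, had 1.62 ± 0.53 (SE, edgeR adjusted p = 0.198).

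**Figure D3:**
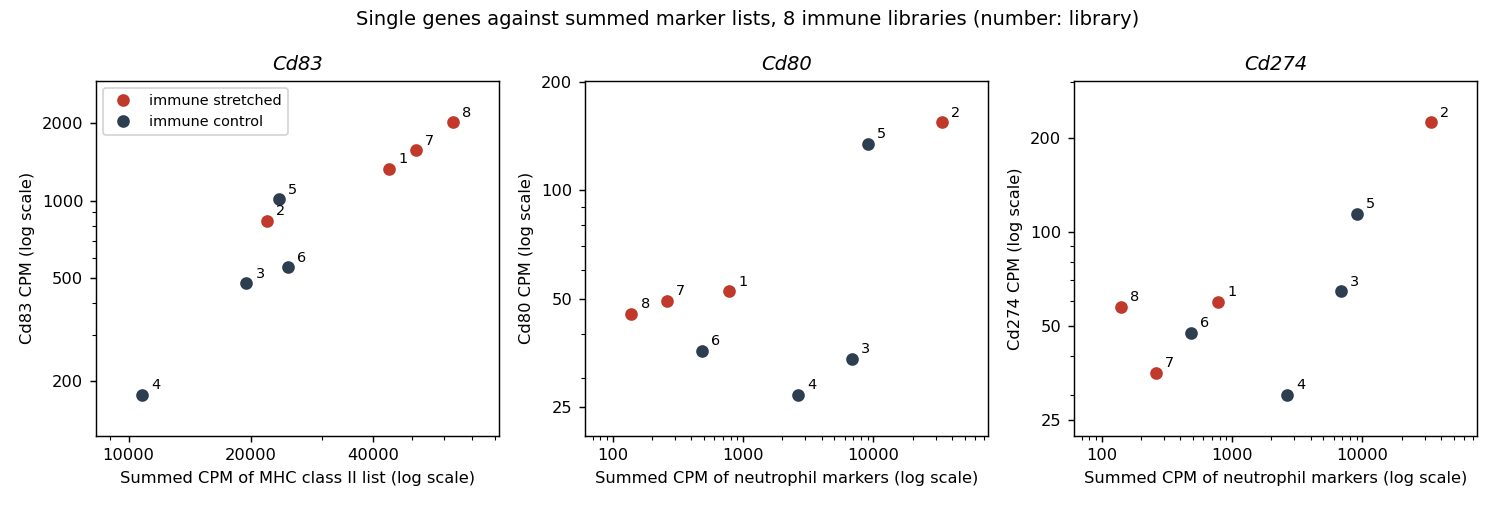
*Cd83* against the summed MHC class II list, and *Cd80* and *Cd274* against the summed neutrophil markers, in CPM on log axes, with 1 numbered point per immune library. Single genes are TMM-scaled, and sums are scaled to library totals without TMM factors. *Cd83* follows the class II sum from control 4 to stretched 8, while *Cd80* and *Cd274* are highest in stretched 2 and control 5, which have the largest neutrophil sums. Control 3, with the next largest sum at 6872 CPM, had 34.1 CPM of *Cd80* and 64.5 CPM of *Cd274*.

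Set against the reads of 15 conventional dendritic cell markers in the same library, 1 of the 9 genes, *Fscn1*, separated stretched from control skin, where 15.5% of the 14183 genes did, 15.2% with stretched lower and 0.317% with stretched higher. The marker reads themselves had a median sum of 2412 CPM in immune stretched and 1313 CPM in immune control libraries. There were 0.613, 0.699, 0.359 and 0.727 *Fscn1* reads per 100 marker reads in immune stretched libraries 1, 2, 7 and 8, against 1.82, 1.67, 2.35 and 1.001 in immune controls 3 to 6. The groups did not overlap, and they did not overlap with the class II list in the denominator either (0.0200 to 0.0336 in stretched, 0.0601 to 0.154 in control libraries). With the class II list in the denominator *Cd40* was lower too (0.101 to 0.226 in stretched, 0.232 to 0.381 in control libraries), where 34.4% of all genes separated. The other 8 genes overlapped on the first scale. Without stretched 2, *Cd80* and *Cd274* were also lower in stretched skin without overlap, as were 41.4% of all genes. Without control 5, *Cd83* was higher without overlap, as were 0.409% of all genes. For these 3 genes the library left out was the one that made the groups overlap, so the separation follows from that choice. *Ccr7* had 3.70, 9.83, 2.79 and 5.72 reads per 100 marker reads in stretched and 3.32, 3.22, 7.40 and 2.69 in control libraries. *Cd83* had 63.7, 61.1, 52.0 and 65.0 in stretched and 40.0, 29.0, 64.6 and 40.1 in control libraries. These ratios are descriptions without a test. The marker list includes genes that other skin cells also use, and its sum in the stromal fraction was 2144 to 3293 CPM in stretched and 1755 to 3826 CPM in control libraries.

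**Figure D4:**
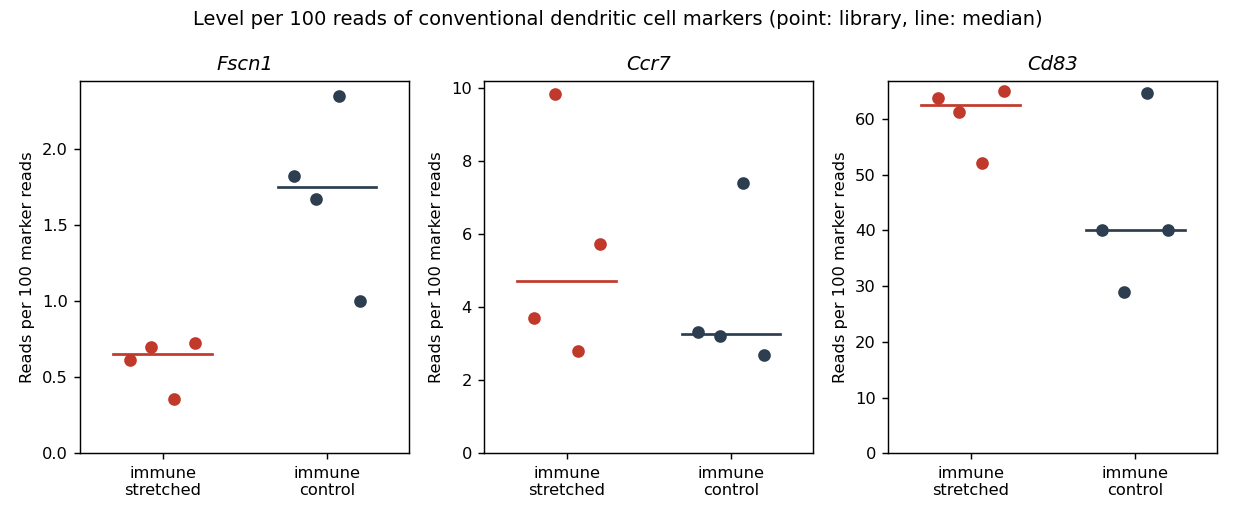
Reads of *Fscn1*, *Ccr7* and *Cd83* per 100 reads of the conventional dendritic cell markers in each immune library, with a line at the group median. *Fscn1* is at most 0.727 in the 4 stretched libraries and at least 1.001 in the 4 controls, while *Ccr7* and *Cd83* overlap. On this scale 15.2% of all genes tested separated with stretched lower.

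Most other genes listed for the same programme also had positive values in immune cells, and 0 of any list below were called (0.0% of all genes). Of 40 further genes of mature dendritic cells, 36 were tested, and 30 had a positive and 6 a negative value, with a median log2 fold change of 0.59. *Relb*, the NF-kB subunit needed for dendritic cell maturation, had 95.7 ± 18.3 CPM in immune stretched and 50.2 ± 13.1 CPM in immune control libraries (SD, n = 4 each), a log2 fold change of 0.76 ± 0.25 (edgeR adjusted p = 0.204), and the groups did not overlap. *Cxcl16*, the membrane-bound ligand of CXCR6, had 0.92 ± 0.33 and *Tmem176a* 0.98 ± 0.35. Of 29 tested signals that mature dendritic cells, 26 were positive with a median of 0.59. *Myd88*, the adaptor of Toll-like and interleukin-1 receptors, had 224 ± 61.7 CPM in immune stretched and 80.8 ± 17.3 CPM in immune control libraries, a log2 fold change of 1.32 ± 0.28 (edgeR adjusted p = 0.134). *Ifngr1*, a chain of the interferon-gamma receptor, had 1.12 ± 0.34.

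Of the 12 partners and related genes, 10 were positive with a median of 0.50. *Pdcd1*, which encodes the PD-1 receptor for PD-L1, had 9.48 ± 3.69 CPM in immune stretched and 3.48 ± 2.59 CPM in immune control libraries (log2 fold change 1.30 ± 0.55, edgeR adjusted p = 0.267). Of 23 actin genes of migrating leukocytes, 18 were positive with a median of 0.62, led by the Arp2/3 regulator *Coro1a* (1.27 ± 0.42, edgeR adjusted p = 0.198). Of 21 genes of dendritic cell trafficking, 13 were positive with a median of 0.26. *Gpr183*, a receptor for oxysterols that positions dendritic cells, had 79.9 ± 6.08 CPM in immune stretched and 35.3 ± 19.6 CPM in immune control libraries (log2 fold change 1.05 ± 0.35, edgeR adjusted p = 0.204), without overlap. Of the 15 conventional dendritic cell markers 11 were positive with a median of 0.43, of 6 Langerhans cell markers 2 were, with a median of -0.33, and of 7 plasmacytoid dendritic cell markers 1 was, with a median of -0.49. Macrophage markers had a median of 0.25 with 9 of 13 positive, and mast cell markers 0.57 with 8 of 9 positive. Neutrophil markers had a median of 1.30 with 9 of 9 tested positive, but only stretched 2 was high among the stretched libraries, and the median of their sum was 519 CPM in immune stretched and 4749.6 CPM in immune control libraries. Fibroblast markers had a median of 0.86 with 10 of 10 positive. Markers of lymphatic endothelium, which lines the vessels that dendritic cells enter, had a median of -1.05 with 0 of 7 positive, and those of blood endothelium -0.83 with 1 of 10. Keratinocyte markers had a median of -1.33 with 0 of 9 positive, but their sum was 2495 CPM in control 3 and 24.3 to 671 CPM in the other controls, and its median was 576 CPM in immune stretched and 403 CPM in immune control libraries. What the makeup of the sorted cells contributed to the values of the 9 genes was not tested.

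The third comparison set stretched against control stromal cells. Of the 9 genes 6 passed the filter on low counts and 0 were called, where 4.98% of 16074 genes were called (edgeR). At an unadjusted p under 0.05, 1 of the 6 (*Cd40*) passed, where 26.8% of all genes did, and in 1 of the 6, again *Cd40*, the groups did not overlap, as in 18% of all genes. *Cd40* had 4.55, 4.01, 2.73 and 3.33 CPM in stromal stretched libraries 5 to 8, against 1.60, 2.28, 1.61 and 1.41 CPM in stromal controls 1 to 4. Each stretched library was above each control. These levels rested on 70 to 99 reads per stretched library and 21 to 43 per control library. The log2 fold change was 1.08 ± 0.31 (SE, adjusted p = 0.0614 in edgeR). It was called by DESeq2 (1.09, adjusted p = 0.0130), by limma-voom (0.98, adjusted p = 0.0224) and by edgeR with the stricter filter (1.10, adjusted p = 0.0406). In those settings 14.4%, 22.4% and 11.6% of all genes were called. Leaving out single libraries gave 0.96 to 1.30 with edgeR adjusted p from 0.0920 to 0.152, and without stromal stretched 7 and 8 it was 1.29 (adjusted p = 0.269).

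In the same libraries *Ptprc* averaged 1.64 ± 1.18 CPM for stretched and 0.534 ± 0.565 CPM for control stroma (SD, n = 4 each). Macrophage markers summed to 33.5 to 83.3 CPM in stromal stretched and 37.5 to 54.4 CPM in stromal control libraries, and neutrophil markers to 3.34 to 15.6 CPM in stretched and 2.12 to 8.21 CPM in control libraries, with 1 of the 11 neutrophil markers at 0 reads in the controls. T cell markers summed to 1.46 to 4.85 CPM in stretched and 1.24 to 2.06 CPM in control libraries, and B cell markers to 0.638 to 3.19 and 0.257 to 2.25 CPM. The class II list summed to 56.9 to 191 CPM in stretched and 69.9 to 146 CPM in control cells. Of its 11 genes 7 were tested, and 0 of these had a positive value. The part of leukocytes in stromal *Cd40* was not tested.

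The other stromal genes overlapped between stretched and control cells. *Cd274* had 20.6, 11.01, 19.9 and 6.93 CPM in stromal stretched libraries, against 6.92, 8.71, 5.61 and 19.98 CPM in stromal controls. Stretched 5 and 7 and control 4 were near 20 CPM and the other 5 libraries lay at 11.01 CPM or lower. Its log2 fold change was 0.51 ± 0.44 (SE, edgeR adjusted p = 0.489). *Cd86* had 0.81 ± 0.60 from 2 to 32 reads per library, *Cd80* -0.45 ± 0.52, *Fscn1* 0.10 ± 0.32 and *Cd83* -0.01 ± 0.49. *Ccr7*, *Ccl17* and *Ccl22* did not pass the filter. Over the 4 libraries they had 32, 4 and 10 reads in stromal stretched cells and 28, 11 and 20 reads in stromal control cells. Of the 20 *Ccl22* reads 19 were in stromal control 4, and 18 of the 28 *Ccr7* reads were in the same library. The fold changes between the fractions for these 3 genes rest on those few stromal reads.

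A few listed genes were called in the stromal fraction, where 4.98% of all genes were. Of 28 tested signals 3 rose and 0 fell. *Tnfrsf1b*, a receptor for tumour necrosis factor, rose to 77.6 ± 5.42 CPM in stromal stretched cells, against 40.8 ± 6.70 CPM in stromal controls (log2 fold change 0.94 ± 0.17, edgeR adjusted p = 0.0424). *Tnfaip3*, an inhibitor of NF-kB, and *Il1r1*, the interleukin-1 receptor, rose by 0.89 ± 0.21 and 0.80 ± 0.20. *Nfkb2*, the NF-kB subunit that CD40 signalling processes, was the 1 of 29 tested mature dendritic cell genes that rose, with 163 ± 12.1 CPM in stretched and 78.0 ± 25.6 CPM in control cells (1.07 ± 0.25, edgeR adjusted p = 0.0466). Of 12 tested trafficking genes 2 rose, the adhesion molecules *Icam1* (1.04 ± 0.23) and *Vcam1* (0.73 ± 0.17). In the same comparison 10 of 10 blood endothelial markers were positive with a median of 0.62, 7 of 7 lymphatic endothelial markers with 0.82, and 6 of 8 pericyte and smooth muscle markers with 0.46, of which *Pdgfrb* was called (0.77 ± 0.19). Blood endothelial markers summed to 104 to 290 CPM in stromal stretched and 85.5 to 128 CPM in stromal control libraries, and pericyte markers to 219 to 281 CPM in stromal stretched and 120 to 195 CPM in stromal control libraries. Their part in these values was not tested. In each of the other lists of the pathway, namely partners with related genes, actin genes and class II, 0 were called. When each of stromal controls 1 to 3 or stromal stretched 7 and 8 was left out in turn, 0 of all genes were called in this comparison, 2 without stretched 6 and 1589 without stretched 5.

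The stretch effects of the 2 fractions were compared directly in 1 fit of the 16 libraries. Of the 9 genes 0 were called, and 0.0% of the 18295 genes were. At an unadjusted p under 0.05, 0 of the 9 passed, where 23.1% of all genes did. The difference of log2 fold changes, immune minus stromal, was 1.40 ± 0.74 for *Cd83* (SE, edgeR adjusted p = 0.265), 1.57 ± 1.11 for *Ccr7*, 1.96 ± 1.45 for *Ccl22*, 2.03 ± 1.49 for *Ccl17* and 0.85 ± 0.82 for *Cd80*. It was 0.05 ± 0.80 for *Cd274*, -0.34 ± 0.67 for *Cd86*, -0.39 ± 0.43 for *Cd40* and -0.64 ± 0.57 for *Fscn1*. The values of *Ccr7*, *Ccl22* and *Ccl17* rest on few stromal reads. A p above the threshold does not show that the fractions responded alike.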

How the data were processed

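RNA had been measured in 16 libraries of 2 sorted fractions. The deposited table holds raw counts per Ensembl gene. The labels' protocols name the SMART-Seq mRNA LP kit for cDNA and Nextera XT for libraries. The submitters' processing notes name FastQC 0.11.9, STAR and mm10. The sources used here give no counter, annotation or strand setting, so reads of overlapping or antisense genes cannot be told apart. Reads copied by PCR carry no molecular identifiers, so they are not independent molecules.

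Symbols and coordinates came from GENCODE M21 (GRCm38), matched by 55394 of 55487 IDs, and promoters from RefSeq (GRCm38.p6). All 16 columns were matched to samples by their labels.

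Each comparison was fitted over the genes of the whole table with only its own 8 libraries, in edgeR 4.0.16 (R 4.3.3): filterByExpr (minimum count 10, minimum total 15), TMM and the quasi-likelihood F test, with calls at a Benjamini-Hochberg adjusted p under 0.05. The difference of stretch effects used all 16 libraries. Standard errors were derived from the F statistic. CPM of single genes are TMM-scaled over the 16 libraries, and CPM per kb uses the union of exons. Summed CPM of lists and of receptor genes are scaled to library totals without TMM factors. Alternatives were RLE and upper-quartile factors, no filter, a stricter filter (50 reads in 4 libraries), DESeq2 1.42.0, limma-voom (limma 3.58.1), a single fit of the 16 libraries, a block for the number in the title, and the omission of libraries. The fits were tested on simulated data.

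All 9 genes were named, with *Ptprc*, up to 4 genes of each list with the smallest p in a comparison, and up to 3 genes most alike in pattern to each of the 9 (log2 CPM with a prior count of 2). *Ccl19* and *Ccr4* were named after their values were seen. The 9 genes and all lists were chosen with earlier results of these data known.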

Additional observations from a re-analysis of the deposited data

Results flagged for a closer look

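Each of the 9 genes was examined in each group of 4 libraries for a library far from the other 3, by Dixon's criterion for the gap between the outermost library and its neighbour. Of 36 such groups 5 had one. For independent, normally distributed values the criterion marks about 1 in 20 groups. The CPM were not log-transformed and the genes share libraries, so this rate cannot be set against the 5. In immune stretched skin *Cd80* was at 155 CPM and *Cd274* at 224 CPM in library 2, against highest values of 52.4 and 59.6 CPM in the other 3. That library also had the largest sum of neutrophil markers, and the part of these cells was not tested. In immune control skin *Cd80* was at 135 CPM in library 5, against 35.8 CPM at most in the other 3. In stromal stretched skin *Cd83* was at 10.1 CPM in library 6, against 3.06 CPM at most. In stromal control skin *Ccl22* was at 1.08 CPM in library 4, from 19 reads, against 0.0761 CPM at most.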

How the results depend on the processing

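No gene changed its call in the immune fraction except *Cd83*, which limma-voom called (1 of the 9 genes, beside 6.26% of all genes, and 0 in the other 15 settings). In the stromal fraction the stricter filter, DESeq2 and limma-voom each called 1 gene of the 6, *Cd40*, beside 11.6%, 14.4% and 22.4% of all genes. Between the fractions, 9 of 9 genes passed in stretched skin under all 17 settings, 8 as higher and *Fscn1* as lower in immune cells. In control skin 7 to 9 passed, and the stricter filter left *Ccl17* untested. In the main fits 8380 of all 17116 genes passed in stretched and 7484 of 15142 in control skin. *Fscn1* passed in control skin under limma-voom (-0.99), with a replicate block on the title number (-1.14) and without immune control 5. The difference of stretch effects had 0 calls among the 9 under all 24 settings.

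The sign turned for some values that were not called, and the cause was not tested. In the immune fraction limma-voom gave -0.26 for *Cd274*, and leaving out control 4 with stretched 2 gave -0.59 for *Ccl17*, -0.64 for *Cd80* and -0.73 for *Cd274*. Leaving out single libraries gave -0.34 to 1.43 for *Ccl17*, -0.038 to 1.26 for *Ccl22*, -0.43 to 1.06 for *Cd80* and -0.52 to 0.86 for *Cd274*. Stromal *Cd83* was 0.0094 with RLE, 0.050 with upper-quartile factors, 0.018 with the stricter filter, 0.010 in DESeq2, 0.40 without stretched 7 and 8, and -0.74 to 0.29 without single libraries, when stromal *Fscn1* ran from -0.074 to 0.39. For the difference of effects *Cd274* was -0.10 with RLE, -0.18 with upper-quartile factors, -0.0034 with no filter, -0.065 with the stricter filter, -0.10 in DESeq2, -0.58 in limma-voom, -1.17 without immune control 4, immune stretched 2 and stromal stretched 7 and 8, -0.17 with the replicate block and -1.02 to 0.44 without single libraries. *Cd86* ran from -1.01 to 0.11 and *Ccl22* from -1.62 (without stromal control 4) to 2.93 without single libraries, and the replicate block gave 0.042 for *Cd40* and 0.23 for *Cd86*.

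Same-numbered libraries did not deviate together (correlations of -0.121 to 0.162 over 8 numbers, 3 over 0.1, and 0 libraries closest to their own number), so the number was not taken as a pairing. Numbers 1, 2, 5 and 6 had opposite treatments in the 2 fractions, and those over 0.1 were 1, 5 and 6. Numbers 3, 4, 7 and 8, with the same treatment in both, had -0.0487, -0.121, -0.00149 and 0.0537. The block gave 9, 9 and 0 calls among the 9 genes for the stretched sort, the control sort and the difference of effects. Of all 18295 genes it called 4780, 7203 and 2. In the ratio to dendritic cell markers 1 of the 9 genes separated, beside 15.5% of all genes, 2 with the class II list in the denominator, beside 34.4%, and 1 to 3 without single libraries, beside 15.8% to 42.0%. Removing *Dpp4*, *Kit* and *Cd24a*, or also *Mgl2*, *Clec10a* and *Cd209a*, from the markers, chosen after seeing the data, left it at 1, beside 10.8% and 13.9% of all genes. *Ifi205*, high in stromal cells, stayed in both shortened lists, and a marker list without it was not tried.

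Counts of all genes called depended on the tool. In the immune fraction DESeq2 called 781, limma-voom 888, the fit of all 16 libraries 667, and 21 passed without control 4 and stretched 2. In the stromal fraction the 800 calls became 2115 with no filter, 1378 with the stricter filter, 2312 in DESeq2, 3599 in limma-voom, and 0 without stretched 7 and 8 or in the fit of all 16. The difference of effects had 3924 calls with no filter, 1625 in DESeq2, 1453 in limma-voom, 120 with the stricter filter, 25 with upper-quartile factors and 2 with the block, and the stretched sort 4780 with the block. In the stromal fraction *Ccr7*, *Ccl17* and *Ccl22* had 4 to 32 reads per group and did not pass the filter on low counts.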
